A study of Mus musculus with 8 samples.

Results

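Metallothioneins and zinc transporters are described here in soleus (SOL) muscle of mice that lack IRF4 in muscle and of their controls. The members are 10 genes, Mt1, Mt2, Mt3, Mtf1, Slc39a14, Slc39a1, Slc39a7, Slc30a1, Slc30a4 and Slc30a9, found by gene symbol among the 24054 genes of the deposited table, and each of them has 1 row there. They were selected on these same values, the high levels of some of them in 1 MI4KO mouse and the difference between the groups, so both are given as a description with no test. The comparison set 4 MI4KO mice against 4 flox mice, all of them male C57BL/6 animals labelled as fed a high-fat diet, while the study's text names no diet for the sequenced animals, and their age is not given in the sources used here. MI4KO mice carry floxed Irf4 alleles and Myl1-Cre, and flox mice carry the floxed alleles without Cre, so that the groups differ in the Cre allele as well as in Irf4. Myl1 is a myosin light chain of fast fibers, Myl1-Cre acts in muscle fibers, and the other cells of the muscle keep Irf4. Each library holds the RNA of 1 muscle sample from 1 mouse, and within a group mice are called 1 to 4, from the lowest to the highest number on the labels.

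Metallothioneins are small cysteine-rich proteins that bind zinc and copper in the cytosol, and their genes are among the most inducible in mammalian tissues. Zinc itself induces them through the transcription factor MTF1, which binds metal response elements in their promoters, and glucocorticoids and cytokines such as IL-6 induce them as well. Zinc reaches the cytosol through ZIP transporters (the Slc39 family) and leaves it, across the plasma membrane or into organelles, through ZnT transporters (the Slc30 family).

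Values are TMM-normalized CPM, a read count set against the depth of its library after a scaling that keeps most genes at the same level in all libraries. Between 13417512 and 16384565 reads per mouse stand behind them, and a gene with 3 reads has a value from 0.181 to 0.225. To check the tissue, 7 slow-fiber markers (Myh7, Myl2, Myl3, Tnni1, Tnnt1, Tnnc1 and Atp2a2) summed to 32196 to 42353 per mouse and 8 fast-fiber markers to 46216 to 62057, so both kinds of fiber gave abundant RNA and the fast sum was the higher in each mouse. The fast sum was highest in MI4KO mouse 3. Myh4, 1 of the fast markers, was uneven, at 1807, 2496, 34.5 and 35.4 in flox mice 1 to 4. In MI4KO mice 1 to 4 it was at 278, 831, 55.8 and 2174. The part of fiber content in the results was not tested. Acta1 and Ckm, which all fibers express, were in the same list as the slow markers and were set apart after their values were seen. Irf4, the deleted gene, was at 0.686, 1.46, 1.58 and 1.68 in flox mice and at 0.725, 0.840, 0.266 and 1.03 in MI4KO mice, from 4 to 23 reads per mouse. MI4KO mouse 3 had the lowest Irf4 value of the 8 mice, and flox mouse 1 lay below every MI4KO mouse but number 3. In limma, its log2 fold change was -0.45 ± 0.20 (standard error) at a Benjamini-Hochberg adjusted p of 1.0. Permuting the 8 labels exactly, two-sided, gave p = 0.114 for Irf4, and 4 mice against 4 cannot go below 0.0286. Flox mouse 1 stood apart in liver genes, of which 18 of 18 were highest in it (summed value 192.5, against 1.46 to 3.26 in the other mice). Some of the group differences below are also given with a single mouse left out.

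The metallothionein genes lie in 1 cluster on mouse chromosome 8. In the GENCODE M21 annotation of GRCm38, Mt3 spans chr8:94152607-94154146, Mt2 chr8:94172664-94173568 and Mt1 chr8:94179082-94180327, all on the plus strand and each with 3 exons. Mt2 and Mt1 are separated by 5513 bases, and the cluster including Mt4 is 43131 bases long. The promoters of Mt1, Mt2 and Slc30a1 are printed because these genes are known targets of MTF1. Each window holds the 300 bases from 250 before to 50 after the start given by RefSeq, which need not be the GENCODE start. Capitals mark matches of the metal response element core, TGCACNC or TGCGCNC, on either strand, so a match on the opposite strand reads GNGTGCA or GNGCGCA.
Mt1 promoter, chr8:94178839-94179138, strand +, GRCm38.p6: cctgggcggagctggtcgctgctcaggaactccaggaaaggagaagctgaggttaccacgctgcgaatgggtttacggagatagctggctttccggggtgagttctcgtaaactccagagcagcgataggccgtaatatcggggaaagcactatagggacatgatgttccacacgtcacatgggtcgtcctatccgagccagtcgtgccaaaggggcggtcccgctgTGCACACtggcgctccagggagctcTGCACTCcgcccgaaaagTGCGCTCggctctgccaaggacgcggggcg
Mt2 promoter, chr8:94172368-94172667, strand +, GRCm38.p6: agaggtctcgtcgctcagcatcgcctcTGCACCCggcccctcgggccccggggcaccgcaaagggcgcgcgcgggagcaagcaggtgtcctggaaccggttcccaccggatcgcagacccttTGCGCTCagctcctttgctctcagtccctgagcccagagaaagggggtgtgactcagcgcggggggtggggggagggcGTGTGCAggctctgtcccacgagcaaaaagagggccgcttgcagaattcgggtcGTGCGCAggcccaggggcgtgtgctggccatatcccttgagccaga
Slc30a1 promoter, chr1:191906531-191906830, strand +, GRCm38.p6: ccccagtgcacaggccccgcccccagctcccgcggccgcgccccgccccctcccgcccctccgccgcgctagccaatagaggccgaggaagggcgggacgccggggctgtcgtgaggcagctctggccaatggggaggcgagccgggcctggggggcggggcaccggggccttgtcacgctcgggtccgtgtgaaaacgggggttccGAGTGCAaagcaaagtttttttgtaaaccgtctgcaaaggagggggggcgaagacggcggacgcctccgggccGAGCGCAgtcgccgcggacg
The Mt1 window holds 3 matches, all on the printed strand, of which the first begins 23 bases before the RefSeq start and the others lie behind it. The Mt2 window holds 4 matches, both strands counted, and that of Slc30a1, the plasma membrane exporter, holds 2. Of the 9 members with a promoter in the RefSeq table, 5 had at least 1 match, as did 25.7% of all 32851 promoters of that length, and 3 members (Mt1, Mt2 and Slc30a4) had 3 or more, as did 1.97% of all. Mt3 had 1 match and Slc30a4 had 3, while the windows of Mtf1, Slc39a1, Slc39a7 and Slc30a9 held none of these letters. The cores TTCNNNGAA, bound by STAT factors, GAAANNGAA, bound by IRF factors, and CACGTG, the E-box, were not found in any of the 9 windows. They occur in 8.3%, 8.56% and 7.15% of all promoters. TGTTCT, the core of a glucocorticoid receptor half-site, was found once, in the Mtf1 window, and occurs in 19% of all promoters. These matches are letters in a window, and no binding was measured. The GC content of the Mt1, Mt2 and Slc30a4 windows was 60.7%, 67.7% and 81.7%. The shares of all promoters were not matched for GC content. Slc39a14 has no promoter in the RefSeq table, so none of these cores was searched for there.

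Per kilobase of transcript, Mt1 was the most abundant of the members, and of the 30 genes of a zinc list that holds them, in SOL of the 7 mice other than MI4KO mouse 3. Its median level per kilobase was 41.2 (range 32.4 to 47.9). Slc39a7, a ZIP transporter of the endoplasmic reticulum, followed at 25.8, Slc30a9, a transporter of mitochondria, at 24.2 and Slc39a1, a zinc importer of the plasma membrane, at 21.6. The ranges of Slc39a7, Slc30a9 and Slc39a1 overlapped between neighbours, and all of them lay below that of Mt1. Mt2 came next among the members, with a median of 4.99 and a range from 3.27 to 14.9, and it overlapped with Slc30a4, a transporter of secretory vesicles, at 3.96. Slc30a4 overlapped in turn with Mtf1 at 3.73. Slc39a14, a ZIP transporter that also carries iron and manganese, was at 2.97, overlapping with Slc30a1 at 2.84. Mt3, which is known from brain, was lowest of the members at 0.902 per kilobase. In MI4KO mouse 3 the order was another: Mt1 was at 347.4, Mt2 was second at 116.6, and Slc39a14 was sixth at 12.0.

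Mt1 was at 23.1, 20.5, 18.6 and 26.3 in flox mice 1 to 4. In MI4KO mice 1, 2 and 4 it was at 17.8, 22.6 and 25, and in MI4KO mouse 3 at 191, from 2869 reads where the other mice had 245 to 413. The groups overlapped, since 3 of the 4 MI4KO mice lay within or just below the flox range and 1 lay far above it. The coefficient of variation of Mt1 over the other 7 mice was 14.5%, and MI4KO mouse 3 stood 8.43-fold above their median. The ratio of the group means, MI4KO over flox, was 2.89 with all mice and 0.985 without MI4KO mouse 3. On the log2(value + 1) scale, which understates changes of low genes, the difference was 0.75 (standard error 0.55) with all mice and -0.02 (standard error 0.13) without MI4KO mouse 3.

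Mt2 was at 5.36, 1.87, 2.55 and 3.57 in flox mice, at 1.67, 7.63 and 1.87 in MI4KO mice 1, 2 and 4, and at 59.6 in MI4KO mouse 3. The same mouse was highest, and MI4KO mouse 2 was next. Mt2 was the more variable of the pair among the other 7 mice, with a coefficient of variation of 63.9%, where the median over all genes tested was 10.4%. Only 23 to 118 reads stand behind each of those 7 values. The exact Poisson interval of MI4KO mouse 2, 6.31 to 9.14, nevertheless overlapped with that of flox mouse 1 alone (4.29 to 6.62). Such intervals cover counting error only and hold no variation between mice. PCR copies could not be told from separate molecules, so the intervals may be too narrow. MI4KO mouse 3 stood 23.3-fold above the median of the other mice. The ratio of the group means was 5.30 with all mice and 1.12 without it, and the log2 fold change was 0.94 (standard error 0.76) and -0.04 (standard error 0.35).

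The proportion of the 2 metallothioneins also varied between mice. Mt2 gave 23.8% of the reads on Mt1 and Mt2 in MI4KO mouse 3 (exact 95% binomial interval 22.4% to 25.2%). In MI4KO mouse 2, whose summed level of Mt1 and Mt2 was 30.3 against 250.3 in mouse 3, the share was 25.2% (21.3% to 29.4%), so that the 2 intervals overlapped at summed levels that were far apart. Flox mouse 1 followed at 18.8% (15.3% to 22.7%). The remaining 5 mice had shares between 6.98% and 12.1%, and none of their intervals reached above 16.4%. The higher shares were thus those of MI4KO mice 2 and 3 and, on the flox side, of flox mouse 1 alone. Its interval overlapped with those of flox mice 3 (8.50% to 16.4%) and 4 (8.97% to 15.5%). Flox mouse 1 is the one with high liver genes, whose part in this share was not tested.

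**Figure D1:**
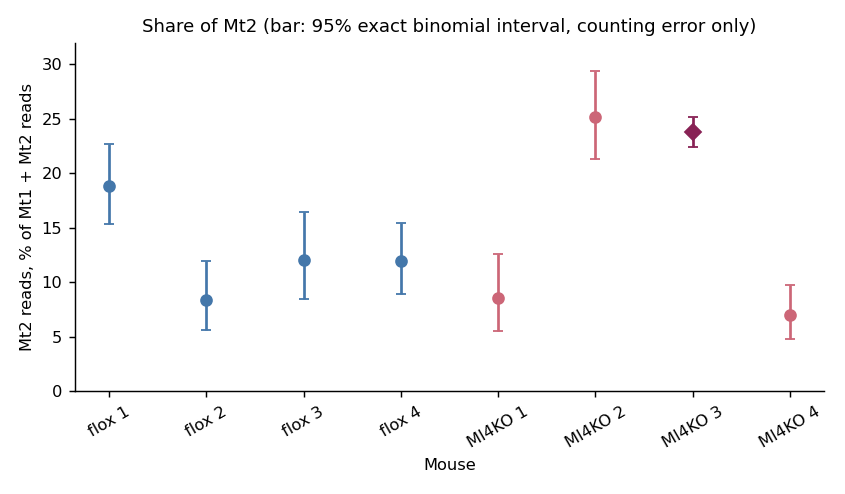
Share of Mt2 among the reads on Mt1 and Mt2, in percent (y axis), for each of the 8 mice (x axis); bars are exact 95% binomial intervals, which cover counting error only. MI4KO mouse 2 (25.2%) and MI4KO mouse 3 (23.8%, diamond) are highest, followed by flox mouse 1 (18.8%), and the other 5 mice lie between 6.98% and 12.1%.

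Mt3 was at 0.225 to 0.763 in flox mice and at 0.363 to 0.598 in MI4KO mice, from 3 to 11 reads per mouse, with MI4KO mouse 3 at 0.598, inside the flox range. It did not pass the filter on low genes, which asks for a value of 1 or more in 4 or more mice and which the other 9 members passed, and it has no fitted fold change. Mt4, which is known from stratified epithelia, had 0 reads in every mouse. The high level in MI4KO mouse 3 was therefore measured in Mt1 and Mt2 and not in the other 2 genes of the cluster, at a depth where 3 reads are a value of about 0.2.

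Slc39a14 was the third member set apart in MI4KO mouse 3. It was at 15, 13.2, 15 and 14.5 in flox mice, at 14.7, 14.0 and 15.6 in MI4KO mice 1, 2 and 4, and at 59.2 in MI4KO mouse 3, which had 890 reads where the others had 190 to 258. The 7 other mice were closely spaced, with a coefficient of variation of 5.37%, and MI4KO mouse 3 stood 4.04-fold above their median. The ratio of the group means was 1.79 with all mice and 1.02 without MI4KO mouse 3. On the log2(value + 1) scale the difference was 0.51 (standard error 0.35), and 0.03 (standard error 0.09) without that mouse. Slc39a14 lies on chromosome 14 of GRCm38 (chr14:70303469-70351425, minus strand).

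Mtf1, the metal sensor itself (chr4:124802104-124849800, plus strand), was at 29.5, 25.1, 28.4 and 26.9 in flox mice and at 28.7, 26.9, 30.4 and 29.0 in MI4KO mice. MI4KO mouse 3 was again the highest, but only 1.03-fold above the next mouse. Its log2 fold change was 0.06 (standard error 0.08). Mtf1 overlaps the gene 1110065P20Rik on the opposite strand, which was at 15.1 to 20.1, and the sources used here do not say whether reads were counted by strand. Mt2, Slc30a1 and Slc30a4 overlap opposite-strand genes as well, of which 1700034H15Rik, at Slc30a1, had a row and was at 0.060 to 0.347.

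The zinc importers Slc39a1 and Slc39a7 lay within narrow ranges in all 8 mice. Slc39a1 (chr3:90248172-90253612, plus strand) ranged from 47.4 to 56.0 in flox mice and from 48.9 to 54.1 in MI4KO mice. Slc39a7 (chr17:34028269-34031682, minus strand) ranged from 56.6 to 62.9 and from 57.1 to 60.7, and its coefficient of variation over the mice other than MI4KO mouse 3, 4.02%, was the smallest of the members. Their log2 fold changes were -0.02 (standard error 0.08) and -0.04 (standard error 0.07). Slc39a7 shares 74.5% of its 50-base windows, the read length, with the overlapping transcript Gm20427. Slc39a1 shares 21.8% with its pseudogene Slc39a1-ps. Neither Gm20427 nor Slc39a1-ps has a row among the deposited values. How reads of such windows were assigned is not known, so both values are uncertain. Mt1, Mt2, Mt3, Mtf1, Slc30a1 and Slc30a4 share no such window with another annotated transcript.

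In none of the 3 ZnT members was MI4KO mouse 3 the highest. Slc30a1, the exporter of the plasma membrane and an MTF1 target like Mt1, was at 10.7, 14.9, 14.9 and 15.9 in flox mice and at 15.2, 14.0, 13.6 and 14.0 in MI4KO mice. MI4KO mouse 3, with 13.6, had the second lowest value of the 8, and flox mouse 1 the lowest. Slc30a4 (chr2:122681233-122702663, minus strand) was at 21.6, 21.7, 20.6 and 15.9 in flox mice and at 22.2, 19.4, 21.1 and 24.1 in MI4KO mice. Slc30a9 (chr5:67306955-67358443, plus strand) ranged from 131 to 143 in flox mice and from 132 to 159 in MI4KO mice, where mouse 1 was highest and mouse 3 was at 139. The log2 fold changes of these 3 genes were 0.02 (standard error 0.12), 0.12 (standard error 0.11) and 0.02 (standard error 0.07). Single mice moved them: Slc30a1 was at -0.098 without flox mouse 1 and Slc30a4 at 0.022 without flox mouse 4. Slc30a9 was at -0.035 without MI4KO mouse 1.

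**Figure D2:**
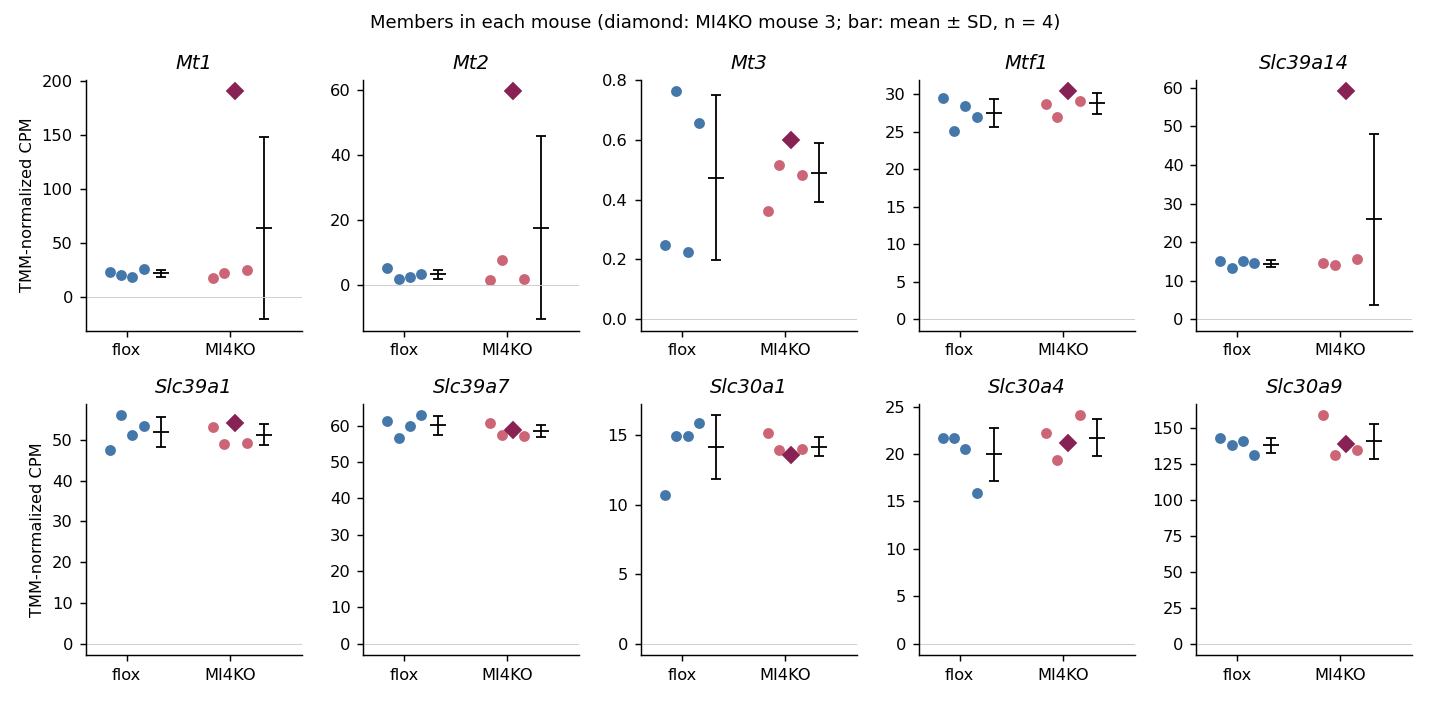
TMM-normalized CPM (y axis, a separate linear scale per gene) of the 10 members in each flox and MI4KO mouse; points are single mice, the diamond is MI4KO mouse 3, and bars are the mean ± SD of 4 mice. In Mt1 (191), Mt2 (59.6) and Slc39a14 (59.2) MI4KO mouse 3 lies far above the other 7 mice, and in the other members it lies among or close to them.

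Across the members, 0 of the 9 that passed the filter had both an unadjusted p under 0.05 and an absolute fold change of at least 1.5 in limma, where 0.219% of the 11865 genes tested had, 0.059% higher and 0.16% lower in MI4KO mice. The comparison chose these members, so nothing is read from that count. In no member did the values of the groups separate, as they did in 2.07% of all genes. On the recovered reads, edgeR's quasi-likelihood test placed Mt1 and Mt2 past the same limits, among 65 of 11865 genes. DESeq2 placed Mt2 past them, among 51 of 11865 genes. Nothing is read from these counts either, for the same reason. Without MI4KO mouse 3 none of the 3 tools placed any member past the limits. There limma placed 0.262% of all genes past them, edgeR 68 of 11812 and DESeq2 46 of 11812. No gene of the table had an adjusted p under 0.05 in limma, 399 (3.36%) had an unadjusted p under 0.05, and edgeR and DESeq2 also placed 0 genes under the adjusted limit, with 363 and 248 under the unadjusted one. The median log2 fold change of the 9 members was 0.06, and that of all genes tested was -0.01.

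MI4KO mouse 3 was the highest of the 8 mice in 4 of the 9 members, Mt1, Mt2, Slc39a14 and Mtf1, and in 30.9% of all genes tested, so being highest there is common in this table. A distance of at least 2-fold above the median of the other 7 mice was less common: 3 of the 9 members and 1.33% of all genes had it. At least 4-fold was found in the same 3 members and in 0.194% of all genes. Of the 11865 genes, 22 (0.185%) were at least as far above the other mice in MI4KO mouse 3 as Slc39a14, 7 (0.059%) as far as Mt1 and 2 (0.0169%) as far as Mt2, each count with the member itself. These counts describe values that chose the members. The median of the ratio to the other 7 mice was 1.06 for the members and 1.05 for all genes tested.

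**Figure D3:**
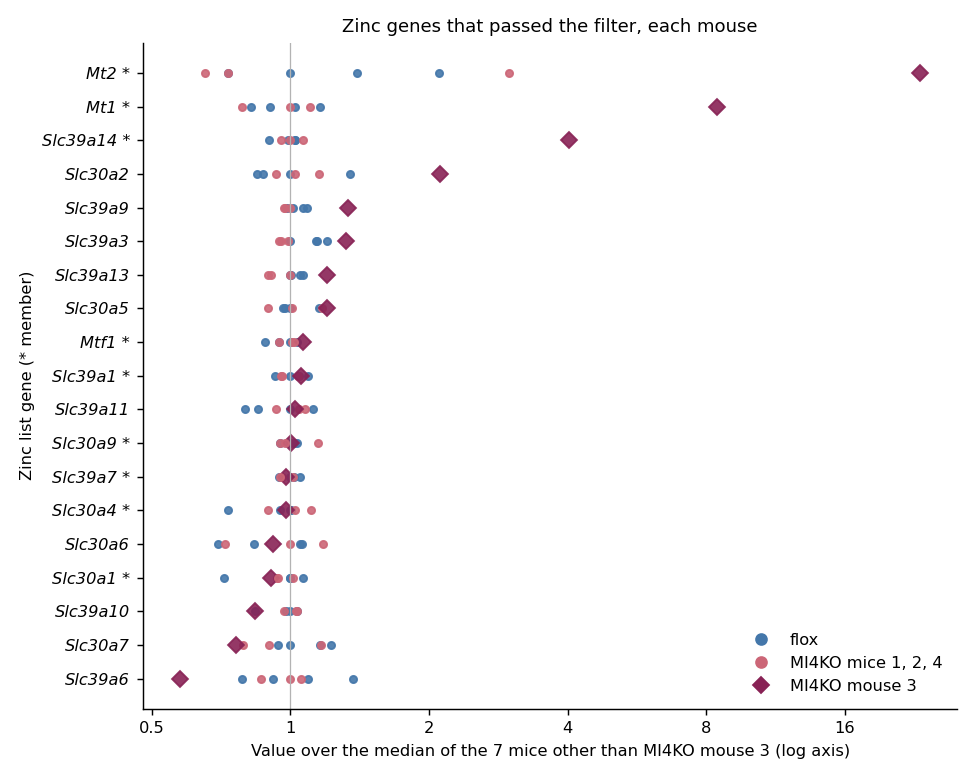
Value of each mouse over the median of the 7 mice other than MI4KO mouse 3 (x axis, log scale) for the 19 zinc list genes that passed the filter (y axis, members with an asterisk); blue points are flox mice, red points MI4KO mice 1, 2 and 4, and diamonds MI4KO mouse 3. Mt2 (23.3-fold), Mt1 (8.43-fold) and Slc39a14 (4.04-fold) stand off to the right, followed by Slc30a2 (2.12-fold).

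The other 20 genes of the zinc list hold the remaining ZIP and ZnT transporters, Mt4 and Tmem163. They are what the selection of the members left, so they cannot show how far the pattern extended. Of these, 10 passed the filter, and 0 were past the limits of 1.5-fold and unadjusted p under 0.05 in limma, against 0.219% of all genes. Their median log2 fold change was 0.02, with a range from -0.22 to 0.29, and 0 had an unadjusted p under 0.05. The highest was Slc30a2, a vesicular transporter known from milk secretion, whose log2 fold change was 0.29 ± 0.22 (standard error) at an adjusted p of 1.0 in limma. Slc30a2 was at 10.5, 14.2, 8.93 and 9.18 in flox mice and at 10.8, 9.83, 22.3 and 12.1 in MI4KO mice, so MI4KO mouse 3 was highest here too, 2.12-fold above the median of the others. Without that mouse the log2 fold change of Slc30a2 was 0.04 ± 0.14 (standard error). Slc39a11 (0.09) and Slc30a5 (0.05), a transporter of the early secretory pathway, came next. The lowest were Slc30a7, a transporter of the Golgi (-0.22), Slc39a6 (-0.18) and Slc39a3, a plasma membrane importer (-0.09). Without MI4KO mouse 3 they were at -0.16, -0.05 and -0.21. In Slc30a7 and Slc39a6 MI4KO mouse 3 was the lowest of the 8 mice, at 3.72 and 1.46, as it was in 13.3% of all genes tested. That mouse was the highest in 5 of the 10 that passed the filter, and in 30.9% of all genes tested.

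Slc39a3 was at 24.5 to 29.4 in flox mice, at 23.2, 23.4 and 24.2 in MI4KO mice 1, 2 and 4 and at 32.4 in MI4KO mouse 3. Without that mouse, the log2 difference was -0.21 ± 0.08 (standard error), with an adjusted p of 0.97 in limma. Per kilobase, Slc39a3 at 6.45, Slc39a13 at 5.05 and Slc30a5 at 4.74 were the most abundant of these genes in the mice other than MI4KO mouse 3. The remaining 10 had at most 15 reads in any mouse, and Mt4 had none. None of these differences passed an adjusted p of 0.05.

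**Figure D4:**
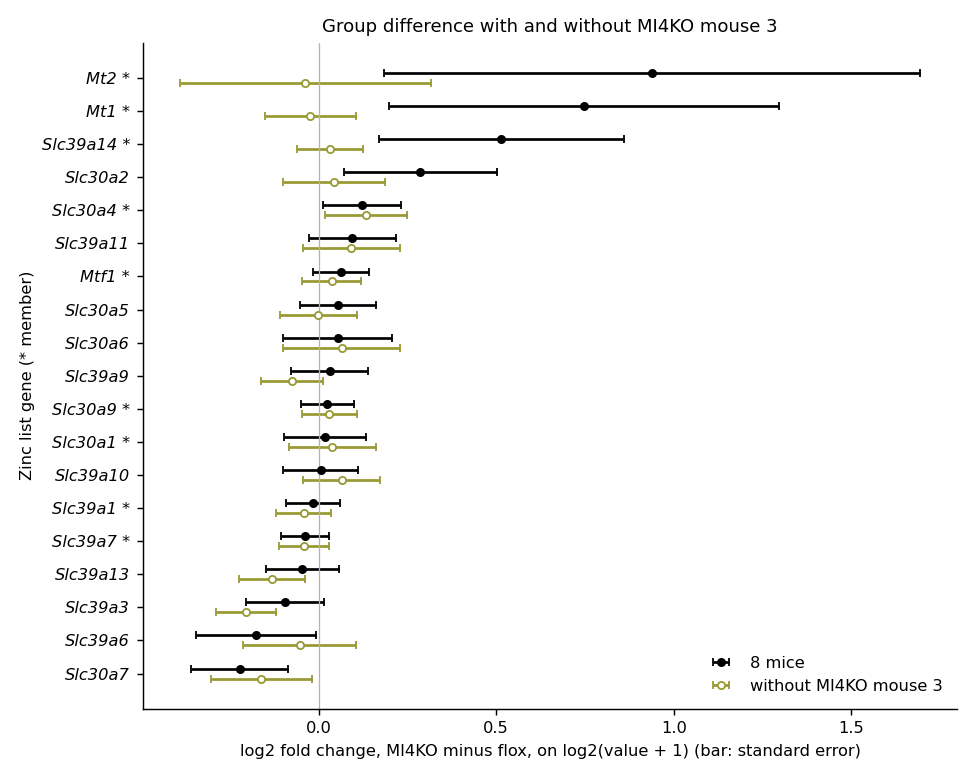
log2 fold change of the 19 zinc list genes that passed the filter, MI4KO minus flox on the log2(value + 1) scale (x axis), with all 8 mice (filled) and without MI4KO mouse 3 (open); bars are standard errors from limma, and asterisks mark members. The differences of Mt2 (0.94), Mt1 (0.75) and Slc39a14 (0.51) come to lie between -0.04 and 0.03 without MI4KO mouse 3.

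Genes outside the members with the profile nearest to each of the 3 were found by the root mean square difference of log2(value + 1), centred on each gene's median, over the 8 mice. Nearest to Mt1 were Selp (0.21), an adhesion receptor of endothelium and platelets, Icam1 (0.22), an adhesion molecule induced on endothelium, and Fkbp5 (0.26), a co-chaperone of the glucocorticoid receptor. Selp was at 15.7 in MI4KO mouse 3 and at 0.363 to 1.46 in the others, Icam1 at 34.1 against 3.12 to 5.48, and Fkbp5 at 159 against 19.4 to 31.2. Nearest to Mt2 were Selp (0.65), Arrdc2 (0.67) and Icam1 (0.73), while Mt1 itself was nearer to Mt2 than these, at 0.62. Nearest to Slc39a14 were Ppp1r3c (0.12), a glycogen-targeting subunit of protein phosphatase 1, the transcription factor Foxo1 (0.13) and the amino acid transporter Slc7a8 (0.16). Ppp1r3c was at 1128 in MI4KO mouse 3 and at 222 to 293 in the other mice, and Foxo1 at 124 and at 29.1 to 41.8. All of these likenesses rest on 1 high mouse and are over 8 mice only.

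Other inducers of metallothioneins have target genes of their own, and lists of these are set beside the members. All lists were chosen with earlier results known, and what moves the members was not tested. Of 14 glucocorticoid-responsive genes, 14 were highest in MI4KO mouse 3, against 30.9% of all genes, and 7 of them, against 1.33%, stood at least 2-fold above the median of the others (median ratio 2.04, against 1.05 for all genes). Ddit4 was at 90.1 in MI4KO mouse 3 and at 8.81 to 24.4 in the others, Fkbp5 was 6.51-fold and Cebpd 3.31-fold above their median, and the summed level of the list was 4417 against 2555 to 2952. Of 12 tested genes of the IL-6, STAT and acute-phase list, 8 were highest in MI4KO mouse 3 and 5 were at least 2-fold up there, with a median ratio of 1.66; the shares of all genes were 30.9% and 1.33%. Lcn2, an acute-phase protein that did not pass the filter, had the highest ratio of the list, 12.6, and was at 6.38 against 0.15 to 2.74. Cish, a feedback inhibitor induced by STAT5, was at 44.5 against 2.26 to 12.9, Bcl3 at 5.25 against 0.729 to 1.81 and Il6ra at 12.2 against 3.41 to 7.67. Il6 itself was at most 0.145 in any mouse, and Socs3, a STAT3 target, was at 4.99 in MI4KO mouse 3, below the 6.85 of MI4KO mouse 2. Hp, haptoglobin, was at 7.18, which is 0.523 of the median of the others. None of the tested genes of both lists was past the limits in limma.

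Known targets of MTF1 outside the zinc list were also examined. Of 6 tested, 4 were highest in MI4KO mouse 3 and 1 was at least 2-fold above the others, where 30.9% and 1.33% of all genes were. That was Slc40a1, the iron exporter ferroportin, at 18.3 against 6.85 to 10.3, and the median ratio of the list was 1.15, against 1.05 for all genes. Of 18 tested genes of iron and copper handling, 10 were highest in MI4KO mouse 3 and Slc40a1 was again the one 2-fold up, with a median ratio of 1.11, against the same shares and median of all genes. Tfrc, the transferrin receptor, was lowest there, at 49.7 against 90.9 to 128. Neither list had a gene past the limits in limma. Whether the muscle of MI4KO mouse 3 held more zinc or iron was not measured.

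**Figure D5:**
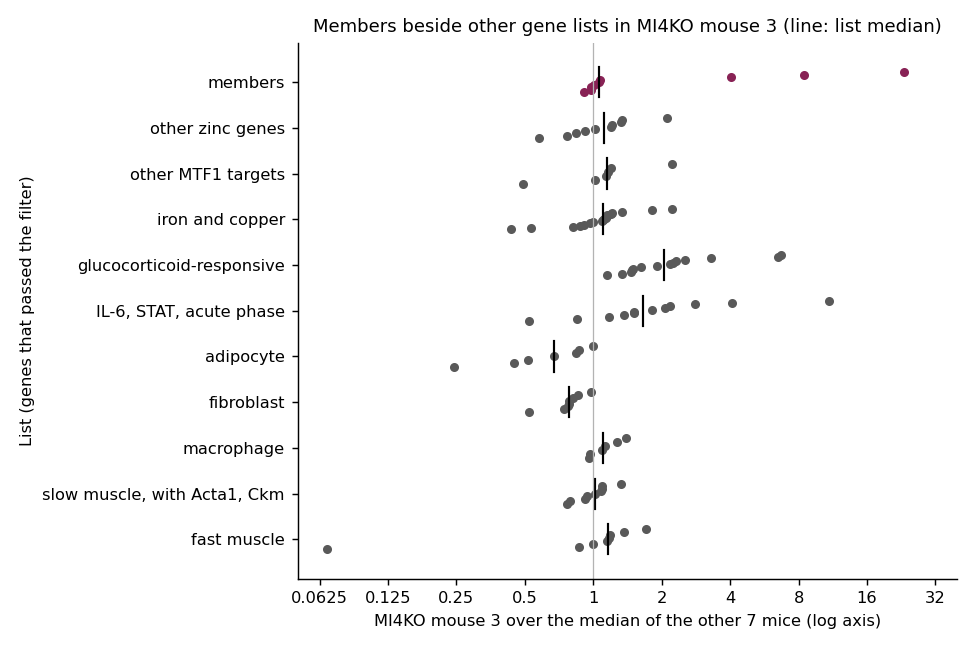
Value in MI4KO mouse 3 over the median of the other 7 mice (x axis, log scale) for genes that passed the filter, by list (y axis); points are genes and vertical lines list medians. The members hold 3 genes at 4.04-fold or more beside 6 close to 1, while the glucocorticoid-responsive list lies above 1 as a whole, with a median of 2.04.

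Markers of other cell types were examined in the same mouse, since in whole muscle fewer cells of a type and less RNA per cell cannot be told apart. The 9 neutrophil genes with a row summed to 6.12 in MI4KO mouse 3 and to 1.13 to 2.06 in the others; S100a8, S100a9, Retnlg and Mmp8 were highest there, at 1.6, 1.8, 0.864 and 0.465. Cxcr2, the 1 neutrophil gene that passed the filter, was at 1.40, which is 0.974 of the median of the others. Ngp and Camp were at 0 in that mouse, and Mpo and Elane in every mouse. Macrophage genes summed to 34 in that mouse and to 26.9 to 35.6 in the others. Fibroblast genes summed to 343 against 299.9 to 506, and adipocyte genes to 247 against 185 to 310.4. The summed liver genes of MI4KO mouse 3, 1.46, were the lowest of the 8 mice. Their part in the levels of Mt1, Mt2 and Slc39a14 was not tested. In flox mouse 1, where the liver genes were high, Mt1 (23.1) lay within the range of the other flox mice. Slc39a14 (15.03, against 13.2 to 15.01) was the highest of the flox group by a small margin, and Mt2 (5.36) was also the highest.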

How the data were processed

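SOL RNA of 4 MI4KO and 4 flox mice was measured by RNA-seq. From stranded mRNA libraries and single-end reads of 50 bases, the authors aligned with Bowtie2 2.1.0 to UCSC transcripts, quantified with RSEM 1.2.15 and scaled by TMM; the submitters' processing notes name mm10 and bcl2fastq 2.17. The signal deposited for every gene and mouse is its TMM-normalized CPM, and whether reads were counted by strand is not given in the sources used here. The fold change, p-value and FDR of the authors' own edgeR comparison are also deposited and were not used.

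Dividing by the step of each mouse gave whole counts, with 100% of values above 0 whole within 0.01 read. The authors estimated expression with RSEM, so these counts, called reads here, may be rounded estimates. The exact intervals above treat them as counted reads. Recovered totals were 13417512 to 16384565 reads per mouse, with a floor of 3 reads. The chi-square per degree of freedom between any pair was 6.06 to 52.4, so every library was taken as a sample of its own. The whole table was fitted with limma 3.58.1 (R 4.3.3) on log2(value + 1) with the trend option, keeping genes that reached a value of 1 in 4 or more of 8 mice, with Benjamini-Hochberg adjustment over all genes; limits were an unadjusted p under 0.05 and a fold of 1.5. On simulated counts with 11865 genes, limma recovered 97 of 100 4-fold changes and 85 of 100 2-fold changes at an adjusted p under 0.05. It called 12 of 11665 unchanged genes. Those counts were drawn independently for each gene and mouse and hold no outlying mouse. They do not measure the power of the comparison of the real mice. Alternatives were a pseudocount of 0.1, no filter, 2 other scalings, limma without trend or robust, a covariate for the 2 ranges of mouse numbers, each mouse left out, and edgeR 4.0.16 and DESeq2 1.42.0 on the recovered reads, also without MI4KO mouse 3 (added after seeing the data).

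The members, gene lists and tests were chosen with earlier results of these data known. Beyond the members and Irf4, named genes are the 3 highest and 3 lowest log2 fold changes and the 3 highest levels per kilobase of the other zinc genes, up to 3 genes of a list with the highest ratio of MI4KO mouse 3 to the others, and the 3 nearest profiles of Mt1, Mt2 and Slc39a14; further list genes (Il6, Il6ra, Socs3, Hp, Tfrc, Slc40a1, the neutrophil genes and Mt4) were picked with their values known. Gene models are from GENCODE M21 (GRCm38), with the longest transcript that RefSeq also holds for lengths. The 300-base promoters are from RefSeq (GRCm38.p6), matched by symbol for 9 of 10 members, all but Slc39a14.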

Additional observations from a re-analysis of the deposited data

Results flagged for a closer look

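Within each group of 4 mice, the gap between the most distant mouse and its nearest neighbour was divided by the range of the group, on the deposited values and on log2(value + 1), and set against Dixon's 95% critical value for 4 samples. Of 20 groups (10 members in 2 groups), 4 passed on at least 1 of the scales, 3 on each. Chance passes about 1 in 20 groups, but the members were selected on the high values of MI4KO mouse 3, so the passes of Mt1, Mt2 and Slc39a14 in that mouse restate the selection and are no test. Mt1 in MI4KO mouse 3, at 191, had a gap of 0.958 of the range, and 0.861 on the log2 scale. Slc39a14 in the same mouse, at 59.2, had gaps of 0.965 and 0.929. Mt2 in that mouse, at 59.6, passed on the deposited values (0.897) and not on the log2 scale (0.624), where MI4KO mouse 2 lay between it and the others. Slc30a1 in flox mouse 1, at 10.7, passed on the log2 scale (0.838) and not on the deposited values (0.812); it was the lowest of the 8 mice, and flox mouse 1 is also the one with high liver genes, whose part in this value was not tested.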

How the results depend on the processing

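No paired analysis was possible because each mouse number belongs to 1 mouse of 1 group. Of the 171 alternative log2 fold changes of the members, each moved by less than 1 SD between mice, an SD that MI4KO mouse 3 itself widens in Mt1, Mt2 and Slc39a14. Without MI4KO mouse 3 those of Mt1, Mt2 and Slc39a14 were -0.02, -0.04 and 0.03; without any other single mouse they were 0.67 to 1.1, 0.76 to 1.46 and 0.47 to 0.70. For the ratios of group means, the SD was that of the MI4KO group over the flox mean, which MI4KO mouse 3 widens in the same genes. Of 100 alternative ratios, 3 moved by more: Mt3 without flox mouse 2 (1.30), Slc39a7 under library size scaling (1.01) and Slc30a1 without flox mouse 1 (0.930). Larger shifts stayed within that wide SD. Without MI4KO mouse 3, the ratio of Mt1 went from 2.89 to 0.985, of Mt2 from 5.30 to 1.12 and of Slc39a14 from 1.79 to 1.02. Members past the limits numbered 0 in limma, 2 with edgeR (Mt1 and Mt2) and 1 with DESeq2 (Mt2), which gave no p for Mt1 among 9 genes with an outlying count. The 26 genes past the limits became 71 with a pseudocount of 0.1, 13 with robust limma, 65 with edgeR, 51 with DESeq2, 68 and 46 with these tools without MI4KO mouse 3, and 18 to 57 with single mice left out. At an adjusted p under 0.05 there were 3 genes with DESeq2 without MI4KO mouse 3, 0 to 1 with single mice left out, and 0 under the other alternatives run. The causes were not tested. Irf4 was lower in MI4KO mice under the 15 alternatives in which it passed the filter (-0.88 to -0.31), with an adjusted p over 0.05 in each. Low reads limit Mt3 (3 to 11), Irf4 (4 to 23) and Mt2.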
